A study of Mus musculus with 24 samples.

Results

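De novo lipogenesis, the making of fatty acids from carbohydrate carbon, was followed in mouse liver through 10 genes: Acly, Slc25a1, Acss2, Me1, Acaca, Acacb, Fasn, Thrsp, Srebf1 and Mlxipl. They were chosen by name as the enzymes that turn citrate or acetate into palmitate, their helpers and the pair of transcription factors that govern them. The rule for membership uses no measured value, but the list was made with earlier results of these data known. All 10 were among the 17215 genes measured, through 26 of their 27 array probes. The mice were male C57Bl/6J animals aged 8 weeks on a chow diet, killed at ZT16, which is 16 h after lights on. Liver RNA came from 6 fasted LKO, 6 fed LKO, 5 fasted WT and 5 fed WT mice, on 24 single-colour Agilent arrays because 1 fasted WT and 1 fed WT animal were each hybridised to 2 arrays. LKO mice carried a liver-specific deletion of Ppara, the nuclear receptor that drives fatty acid use in fasting, and WT mice did not. Fasted mice had no food for 24 h and fed mice ate freely. The labels name neither the driver of the deletion nor which stretch of the gene is missing, and they count 22 animals where the series text counts 24.

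In the pathway, the mitochondrial carrier encoded by Slc25a1 exports citrate to the cytosol, where ATP citrate lyase (Acly) cleaves it to acetyl-CoA. Acss2 makes the same product from acetate, and malic enzyme (Me1) supplies NADPH. Acetyl-CoA carboxylase (Acaca, and the mitochondria-bound isoform Acacb) makes malonyl-CoA, from which fatty acid synthase (Fasn) builds palmitate. Malonyl-CoA made by Acacb is best known for restraining the entry of fatty acids into mitochondria. In liver the genes are switched on after a meal by SREBP-1c, a product of Srebf1 that follows insulin, and by ChREBP, the product of Mlxipl, which follows glucose. Thrsp encodes a small protein that promotes lipogenesis and is among the strongest known responders to both.

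Levels are log2 intensities relative to the 75th percentile of the same array, and 0 is that percentile. Changes are log2 differences between group means with their standard error (SE) from limma, fitted over all genes and all 22 animals, and a gene was called at a Benjamini-Hochberg adjusted p below 0.05. These p-values measure the spread between animals. All 10 genes were well above background in all 22 animals at the probe used, and none of their spots was saturated. Levels of different genes are not comparable, since each comes from its own probe. In whole liver, fewer cells of a type and less RNA per cell cannot be told apart. The 7 hepatocyte markers were measured in every group, with summed linear signals, as multiples of the percentile, of 2417 to 2543 in fasted LKO, 2368 to 2705 in fed LKO, 2375 to 2607 in fasted WT and 2385 to 2642 in fed WT livers. The 5 adipocyte markers measured, of 6, summed to 3.20 to 4.65, 2.68 to 3.75, 2.73 to 3.94 and 2.03 to 2.95 in the same order of groups, and Adipoq was not measured. The sums hide single markers that moved. Cfd was called lower in LKO than in WT (-4.22 fasted, -3.20 fed) and Adrb3 higher (0.56 and 0.76), and the other 3 were not called. Among hepatocyte markers, Cps1 and Apoa1 were called higher and Ttr lower with fasting in both genotypes. The part of adipocytes in any result was not tested. The better Ppara probe averaged 5.04 ± 0.12 in fasted LKO, 4.61 ± 0.37 in fed LKO, 5.90 ± 0.13 in fasted WT and 5.27 ± 0.20 in fed WT livers (SD, n = 6, 6, 5 and 5). Since a probe beyond the missing stretch would still read RNA, these values do not test the deletion. Fed LKO replicate 3 stood apart from the other fed LKO mice, for example in Pklr (0.24 against 1.55 to 2.72), and counts are also given without it.

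The stretches of 250 bases before the start site are shown for Thrsp, the member with the largest fall, for Fasn, the synthase itself, and for both transcription factors. They are RefSeq sequences of the mouse build GRCm38.p6, read 5′ to 3′ along the gene, and capitals mark matches on either strand to the 6 motifs spelled out after them. Thrsp lies on the minus strand at chr7:97417551-97417800, Fasn on the minus strand at chr11:120824548-120824797, the first of 3 Srebf1 promoters on the minus strand at chr11:60210472-60210721, and the first of 2 Mlxipl promoters on the plus strand at chr5:135089640-135089889.
Thrsp: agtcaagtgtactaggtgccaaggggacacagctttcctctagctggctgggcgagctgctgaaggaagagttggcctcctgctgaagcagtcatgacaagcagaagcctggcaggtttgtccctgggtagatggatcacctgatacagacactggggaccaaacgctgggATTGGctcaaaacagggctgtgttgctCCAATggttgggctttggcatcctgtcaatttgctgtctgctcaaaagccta
Fasn: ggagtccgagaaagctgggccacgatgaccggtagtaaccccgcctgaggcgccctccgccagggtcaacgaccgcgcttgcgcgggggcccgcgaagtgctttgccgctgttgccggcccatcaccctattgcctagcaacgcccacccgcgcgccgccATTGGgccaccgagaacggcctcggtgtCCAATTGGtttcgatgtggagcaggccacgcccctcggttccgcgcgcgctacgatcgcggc
Srebf1: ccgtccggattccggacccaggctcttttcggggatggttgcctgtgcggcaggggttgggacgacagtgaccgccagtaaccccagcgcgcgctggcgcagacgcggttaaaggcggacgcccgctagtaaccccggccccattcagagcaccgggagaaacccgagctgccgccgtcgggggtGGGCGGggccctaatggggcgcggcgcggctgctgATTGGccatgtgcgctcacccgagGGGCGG
Mlxipl: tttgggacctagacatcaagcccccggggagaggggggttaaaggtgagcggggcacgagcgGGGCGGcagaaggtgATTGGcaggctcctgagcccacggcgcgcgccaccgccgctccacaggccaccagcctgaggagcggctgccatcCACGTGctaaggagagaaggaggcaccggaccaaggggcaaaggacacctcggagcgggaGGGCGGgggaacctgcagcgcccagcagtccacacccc
Thrsp carries a CCAAT box (the element bound by NF-Y, in capitals as CCAAT or ATTGG) on each strand. Fasn has 3 matches to it, a pair of which overlap in the run CCAATTGG. Srebf1 holds 1 CCAAT box and 2 GC boxes (GGGCGG, the element of Sp1), and Mlxipl adds 1 E-box, CACGTG.

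RefSeq listed 14 promoters for the 10 genes, of 32536 promoters searched. A CCAAT box stood in 9 of the 14, in 8 genes, against 33.8% of all promoters, and a GC box in 7 of the 14, in 6 genes, against 33%. CACGTG was found in 2 of the 14, those of Slc25a1 and Mlxipl, against 6.04% of all. TCACNCCAC, the core of a sterol regulatory element, was found in 1, the other Mlxipl promoter, against 1.04%. AGGTCA, the half-site of many nuclear receptors, was found in the Acly promoter, against 14% of all, and TATAAA in the Acacb promoter, against 12.3%. These matches describe the letters in this window only.

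All 10 genes fell with fasting in both genotypes. In LKO livers 10 of 10 were called lower, where 26.9% of all genes were called lower and 22.9% higher, and in WT livers 10 of 10, where 21.8% of all genes were called lower and 22.6% higher. The median change of the 10 was -1.96 in LKO and -1.82 in WT, against medians over all genes of -0.04 and 0.0034. Fasted and fed livers did not overlap for 10 of 10 genes in LKO (27.3% of all genes) and 9 of 10 in WT (34.4%), where Acacb overlapped. Without fed LKO replicate 3 the counts were again 10 and 10. The 2 falls had different controls, since each genotype was set against its own fed group.

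**Figure D1:**
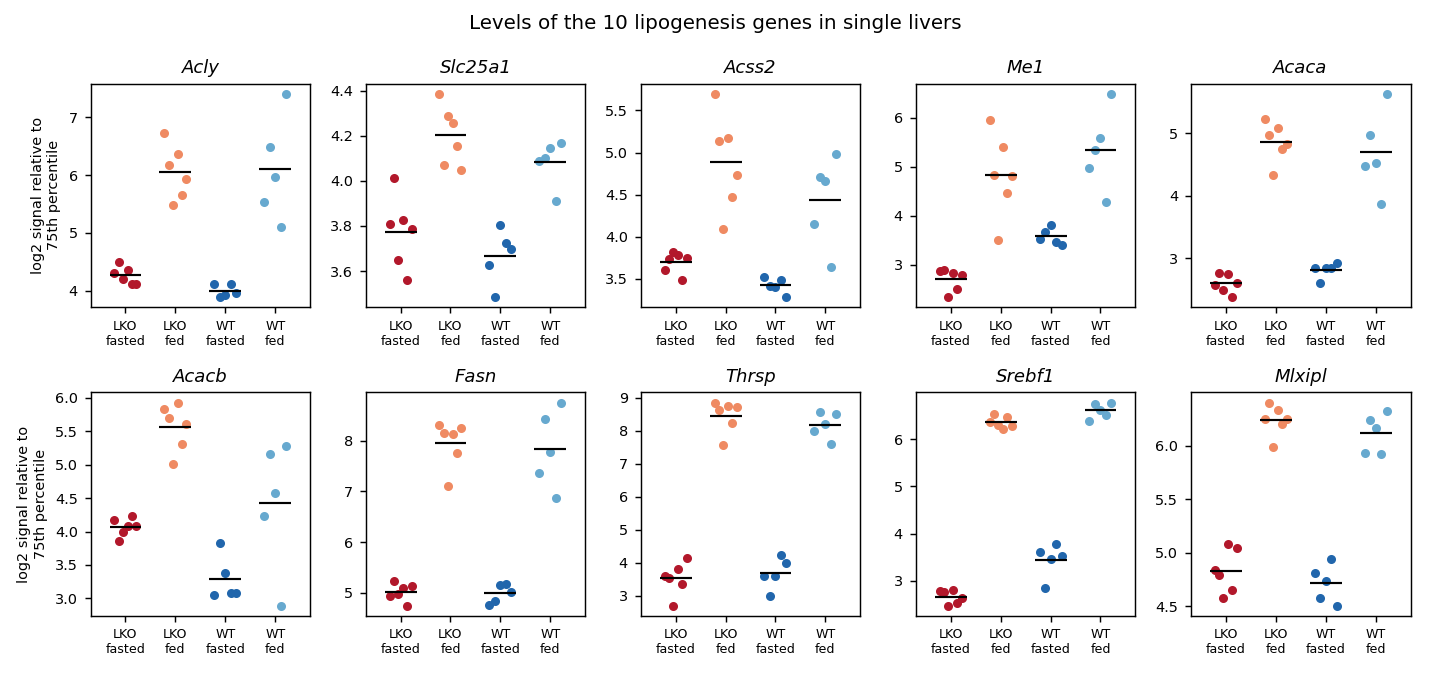
Level of each of the 10 genes (log2 relative to the array's 75th percentile, vertical axis) in every animal (points) of the 4 groups, with group means (lines). The mean of each fasted group lies below the fed mean of the same genotype for all 10 genes, and the 1 overlap is that of fed WT replicate 4 for Acacb.

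Among the genes that supply carbon, Acly was at 4.11, 4.26 and 4.50 (lowest, median and highest) in fasted LKO and at 5.49, 6.06 and 6.73 in fed LKO livers. In WT livers Acly was at 4.11, 3.89, 3.92, 4.12 and 3.96 fasted and at 5.53, 6.48, 5.96, 5.11 and 7.41 fed. In each genotype every fasted liver lay below every fed one, by 3.46-fold on average in LKO (-1.79, SE 0.27, adjusted p = 1.47e-05) and 4.28-fold in WT (-2.10, SE 0.30, adjusted p = 9.16e-06). The citrate carrier Slc25a1 moved least. It was at 3.56, 3.80 and 4.01 in fasted LKO against 4.05, 4.21 and 4.39 in fed LKO livers, and at 3.63, 3.49, 3.80, 3.73 and 3.70 in fasted WT against 4.09, 4.10, 4.14, 3.91 and 4.17 in fed WT livers. The groups stood apart by small gaps, and Slc25a1 fell 1.34-fold in LKO (-0.43, SE 0.08, adjusted p = 9.82e-05) and 1.33-fold in WT (-0.41, SE 0.08, adjusted p = 0.000427).

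Acss2, which makes acetyl-CoA from acetate, fell 2.28-fold in LKO (-1.19, SE 0.22, adjusted p = 0.000143) and 2.01-fold in WT (-1.01, SE 0.24, adjusted p = 0.00191). Its fasted LKO livers lay at 3.49, 3.74 and 3.82 and its fed ones at 4.09, 4.93 and 5.70. Fasted WT livers were at 3.52, 3.41, 3.40, 3.49 and 3.28, and fed WT livers at 4.15, 4.71, 4.66, 3.64 and 4.98, so the lowest fed WT liver was only just above the highest fasted one. Malic enzyme Me1 lay at 2.34, 2.81 and 2.89 in fasted LKO against 3.51, 4.81 and 5.96 in fed LKO livers. In WT livers Me1 was at 3.53, 3.66, 3.82, 3.47 and 3.41 fasted and at 4.97, 5.33, 5.59, 4.28 and 6.48 fed. The fed livers of Me1 were spread widely in both genotypes, and it fell 4.35-fold in LKO (-2.12, SE 0.33, adjusted p = 1.92e-05) and 3.37-fold in WT (-1.75, SE 0.36, adjusted p = 0.00049).

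The carboxylase Acaca, which commits carbon to fatty acid synthesis, was at 2.38, 2.59 and 2.77 in fasted LKO against 4.33, 4.90 and 5.22 in fed LKO livers. It was at 2.85, 2.60, 2.83, 2.84 and 2.93 in fasted WT against 4.48, 4.97, 4.51, 3.86 and 5.63 in fed WT livers. Fasted and fed livers were far apart, and Acaca fell 4.83-fold in LKO (-2.27, SE 0.20, adjusted p = 1.66e-08) and 3.69-fold in WT (-1.88, SE 0.22, adjusted p = 9e-07). Fasn, which carries out the synthesis itself, was at 4.75, 5.04 and 5.24 in fasted LKO against 7.11, 8.14 and 8.30 in fed LKO livers. In WT livers Fasn was at 4.76, 4.84, 5.16, 5.19 and 5.01 fasted and at 7.36, 8.43, 7.78, 6.87 and 8.75 fed. The fasted livers of both genotypes sat in the same narrow band, and Fasn fell 7.59-fold in LKO (-2.92, SE 0.25, adjusted p = 9.1e-09) and 7.19-fold in WT (-2.85, SE 0.27, adjusted p = 7.15e-08).

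Acacb, the isoform at the mitochondrial surface, was at 3.85, 4.09 and 4.23 in fasted LKO against 5.02, 5.65 and 5.93 in fed LKO livers, with no overlap. In WT livers it was at 3.05, 3.83, 3.38, 3.09 and 3.08 fasted and at 4.23, 5.15, 4.58, 2.89 and 5.28 fed. Here fed WT replicate 4 lay below all 5 fasted WT livers. Acacb fell 2.81-fold in LKO (-1.49, SE 0.28, adjusted p = 0.000183) and 2.21-fold in WT (-1.14, SE 0.31, adjusted p = 0.00518). With the mean of its kept probes in place of the brightest, the WT change was -0.42 (adjusted p = 0.0539).

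Thrsp had the largest fall of the 10 genes in both genotypes. It lay at 2.70, 3.57 and 4.16 in fasted LKO against 7.56, 8.68 and 8.86 in fed LKO livers. In WT livers Thrsp was at 3.60, 2.98, 3.59, 4.24 and 3.98 fasted and at 8.01, 8.58, 8.21, 7.60 and 8.51 fed. The gap between the fed and fasted ranges exceeded the width of either, and Thrsp fell 30.5-fold in LKO (-4.93, SE 0.26, adjusted p = 1.41e-11) and 22.7-fold in WT (-4.50, SE 0.28, adjusted p = 3.19e-10).

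Of the transcription factors, Srebf1 was at 2.48, 2.70 and 2.80 in fasted LKO against 6.21, 6.32 and 6.53 in fed LKO livers. In WT livers it was at 3.62, 2.84, 3.46, 3.77 and 3.53 fasted and at 6.38, 6.75, 6.62, 6.52 and 6.77 fed. Srebf1 fell 12.9-fold in LKO (-3.69, SE 0.12, adjusted p = 2.74e-14) and 8.97-fold in WT (-3.16, SE 0.13, adjusted p = 1.66e-12), second only to Thrsp among the 10. The files do not say which Srebf1 transcripts the probe reads. Mlxipl was at 4.57, 4.81 and 5.08 in fasted LKO against 5.99, 6.25 and 6.40 in fed LKO livers, and at 4.80, 4.58, 4.73, 4.94 and 4.50 in fasted WT against 5.93, 6.24, 6.17, 5.92 and 6.33 in fed WT livers. The ranges of the genotypes overlapped in both states, and Mlxipl fell 2.66-fold in LKO (-1.41, SE 0.10, adjusted p = 1.03e-09) and 2.65-fold in WT (-1.41, SE 0.11, adjusted p = 5.76e-09).

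Within each of the 3 array slides, which held 2 arrays of every group, the median change of the 10 genes with fasting was -2.06, -2.02 and -1.82 in LKO and -1.30, -1.90 and -2.33 in WT. The fall was thus present on every slide in both genotypes.

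**Figure D2:**
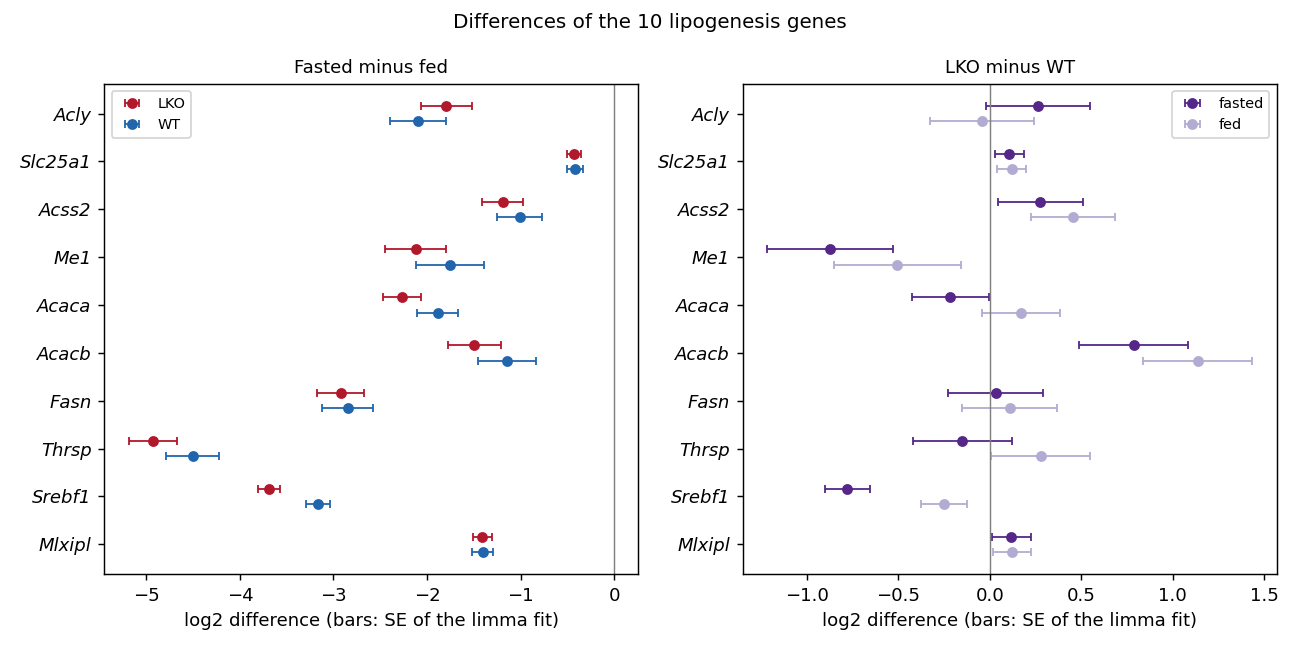
Log2 differences of the 10 genes with their SE, fasted minus fed in LKO and WT on the left and LKO minus WT in fasted and fed livers on the right. The fasting changes lie between -4.93 and -0.41, while the differences between genotypes lie between -0.87 and 1.14.

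Whether loss of Ppara altered the response to fasting was asked with the interaction term, that is, the fasting change of LKO minus that of WT. Of the 10 genes, 1 was called, Srebf1, which was among the 10.8% of all genes called lower (7.71% were called higher). Its fall was 0.53 log2 units deeper in LKO (-0.53, SE 0.17, 95% interval -0.89 to -0.16, adjusted p = 0.0395). On the 3 slides the difference was -0.90, -0.69 and -0.08. The call was lost in 13 of the 22 fits that left out 1 animal (LKO fasted 3, 5 and 6, LKO fed 1, 2 and 5, WT fasted 1, 3, 4 and 5, WT fed 1, 3 and 4), with values of -0.53 to -0.45 and adjusted p of 0.0535 to 0.0773. It was also lost with quantile normalization (-0.45, adjusted p = 0.0916).

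For the other 9 genes the fasting responses were not shown to differ, and the intervals say how large a difference could have been missed. The narrowest were those of Slc25a1, -0.01 (95% interval -0.25 to 0.22), and Mlxipl, -0.00 (-0.31 to 0.31). Fasn differed by -0.08 (-0.84 to 0.69) and Acaca by -0.39 (-1.01 to 0.24). The widest was that of Me1, -0.37 (-1.39 to 0.65), followed by Acacb, -0.35 (-1.23 to 0.53). Acly differed by 0.31 (-0.53 to 1.15), Thrsp by -0.43 (-1.23 to 0.37) and Acss2 by -0.18 (-0.86 to 0.50). The median over the 10 genes was -0.26, against -0.04 over all genes. By slide that median was -0.69, -0.18 and 0.23, so its sign was not the same on every slide.

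In fasted livers, LKO and WT differed in 2 of the 10 genes, 1 higher (17.9% of all genes were called higher) and 1 lower (20% were called lower). Srebf1 was 1.71-fold lower in fasted LKO than in fasted WT livers (-0.78, SE 0.12, adjusted p = 4.79e-05). All 6 fasted LKO livers, at most 2.80, lay below all 5 fasted WT livers, at least 2.84, a narrow gap set by WT replicate 2. By slide the difference was -1.03, -1.03 and -0.37. Acacb was 1.73-fold higher in fasted LKO (0.79, SE 0.30, adjusted p = 0.0426), again with no overlap, the lowest fasted LKO liver at 3.85 and the highest fasted WT liver at 3.83. The Acacb call was lost in the fits without LKO fasted 1, 3, 4, 5 or 6 or WT fasted 1, 3, 4 or 5 (0.73 to 0.81, adjusted p 0.0571 to 0.0905), and with the mean of its kept probes (0.28, adjusted p = 0.194). Of the 3 Acacb probes, 1 was called here, and another had the opposite sign (-0.22, adjusted p = 0.307).

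Me1 also had fasted groups that did not overlap, 2.34 to 2.89 in LKO and 3.41 to 3.82 in WT livers, but its difference of -0.87 (SE 0.34, adjusted p = 0.0519) missed the threshold in the fit that shares 1 spread among all 4 groups. The SD of Me1 was 0.23 fasted and 0.83 fed in LKO, and 0.16 fasted and 0.81 fed in WT. With the fasted groups alone the same difference had an SE of 0.12 (adjusted p = 0.000162), and it was called without LKO fed 1 or 3 or WT fed 4 or 5 (adjusted p 0.0222 to 0.0345). It was also called over all 4 groups with normexp background correction (-0.87, adjusted p = 0.0414) and with the authors' deposited log2 table (-0.85, adjusted p = 0.0473). Keeping only probes well above background in at least 11 animals gave the call too (adjusted p = 0.0486). By slide the Me1 difference was -0.86, -0.85 and -0.88. In that same fit of the fasted groups alone, Acly (0.27, adjusted p = 0.0237) and Acss2 (0.28, adjusted p = 0.0096) were also called, and 5 of the 10 genes in all. The share of all genes called in that fit is not given, so the count is not read as a result about the 10 genes. Non-overlap held for 3 of 10 genes, against 25.3% of all genes.

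Besides Srebf1, Acacb and Me1, the other 7 genes were not called over all 4 groups and each interval spans 0. In fasted livers LKO minus WT was 0.03 for Fasn (95% interval -0.51 to 0.58), -0.15 for Thrsp (-0.71 to 0.41), -0.22 for Acaca (-0.66 to 0.23), 0.12 for Mlxipl (-0.10 to 0.34) and 0.11 for Slc25a1 (-0.06 to 0.27). For the carbon suppliers Acly and Acss2 the intervals were -0.33 to 0.86 and -0.21 to 0.76. The median of the 10 was 0.07, against -0.01 over all genes. Without fed LKO replicate 3, 3 of the 10 were called, 1 higher and 2 lower, with Me1 added.

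In fed livers 1 of the 10 genes differed between genotypes. Acacb was 2.20-fold higher in fed LKO (1.14, SE 0.30, 95% interval 0.52 to 1.76, adjusted p = 0.0331), where 1.97% of all genes were called higher and 1.99% lower. The groups overlapped: fed LKO livers ran from 5.02 to 5.93, and 2 of the 5 fed WT livers, at 5.15 and 5.28, lay in that range. No gene of the 10 had fed groups that did not overlap, against 3.67% of all genes. Fed WT replicate 4, at 2.89, weighed on the value, which was 0.75 (adjusted p = 0.0466) without it. The call was lost without LKO fed 1, 2, 4 or 6 or WT fed 1 or 3 (1.06 to 1.18, adjusted p 0.0571 to 0.0877) and in a fit of the fed groups alone (adjusted p = 0.188). By slide it was 1.86, 0.79 and 0.68.

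The remaining 9 fed differences between genotypes were not called, and each interval spans 0. Acss2 was at 0.45 (95% interval -0.03 to 0.94, adjusted p = 0.348), Me1 at -0.50 (-1.22 to 0.22, adjusted p = 0.517) and Srebf1 at -0.25 (-0.51 to 0.01, adjusted p = 0.329). Fasn was at 0.11 (-0.43 to 0.65) and Acly at -0.04 (-0.63 to 0.55). Thrsp was at 0.28 (-0.28 to 0.84), Acaca at 0.17 (-0.27 to 0.61), Slc25a1 at 0.12 (-0.05 to 0.29) and Mlxipl at 0.12 (-0.10 to 0.34). The median of the 10 was 0.12, against 0.02 over all genes.

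Within the fed groups most of the 10 genes were low or high in the same animals. Fed WT replicate 4 had the lowest level of the 5 in 9 of 10 genes and lay below its group mean in 10 of 10, by 0.72 on average. Fed WT replicate 5 was the highest in 9 of 10, by 0.65 above the mean. Among fed LKO mice, replicate 3 was the lowest in 8 of 10 (-0.57 on average) and replicate 1 the highest in 7 of 10 (0.42). In the fasted groups the mean deviation of an animal ran only from -0.19 to 0.13. One component held 93.2% of the variance of the 10 genes over the 22 animals, which all share the contrast of fasted and fed.

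**Figure D3:**
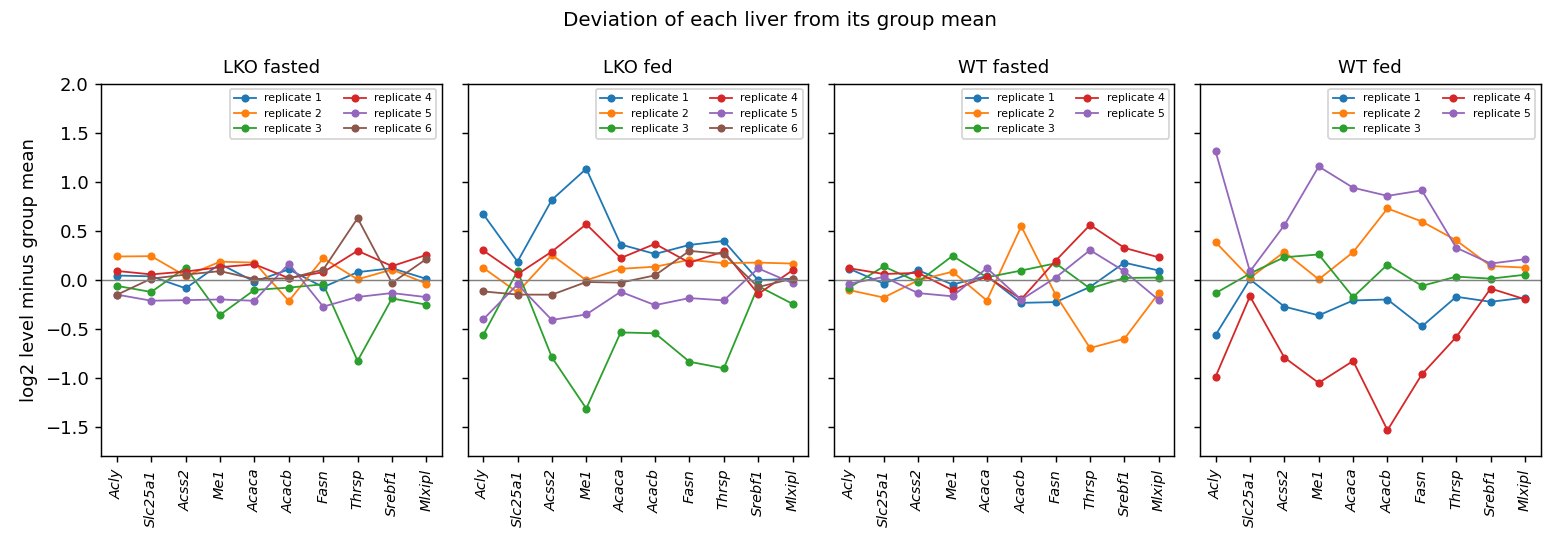
Deviation of each of the 10 genes from its group mean (log2, vertical axis) in every animal, 1 panel per group, with a line joining the genes of an animal. Fed WT replicates 4 and 5 lie at -0.72 and 0.65 on average, and the fasted animals between -0.19 and 0.13.

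The spread between animals differed among the 10 genes, as a description. Acly, Acss2, Me1, Acaca, Acacb and Fasn, all enzymes, had a larger SD in the fed than in the fasted group in both genotypes, while Slc25a1, Thrsp and Srebf1 did so in neither, and Mlxipl in WT alone. The SD of Fasn was 0.17 fasted and 0.45 fed in LKO, and 0.19 fasted and 0.77 fed in WT. The SD of Thrsp was 0.49 in both LKO states, and 0.48 fasted and 0.40 fed in WT. The median SD of the 10 genes was 0.15 fasted and 0.40 fed in LKO, and 0.17 fasted and 0.60 fed in WT, against medians over all genes of 0.16 and 0.18 in LKO and 0.14 and 0.15 in WT. In all, 6 of 10 genes were more variable fed in LKO and 7 of 10 in WT, against 58.1% and 54.1% of all genes, so these counts lie near those of any genes. For the WT animals hybridised to 2 arrays, the median difference of the 10 genes between the repeats was 0.07 fasted and 0.03 fed, with a highest of 0.15 in both.

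Several probes read the same gene at different places, and their changes were not always of 1 size. The probe used for Mlxipl lies at chr5:135613705-135613764 of the build mm9, in which all probe positions are given. A second one, A_55_P2045158 at chr5:135614195-135614252, also near the 3′ end and well above background in all 22 animals, changed by 0.05 with fasting in LKO (SE 0.07, adjusted p = 0.58) and by 0.01 in WT (adjusted p = 0.925), where the probe used gave -1.41 in both. Another, A_55_P2728555, fell by 1.15 in LKO and 1.07 in WT, but shares a run of 20 bases with 9 probes of other genes. No other probe of the 10 genes shared such a run.

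The Acacb probe used lies near the 3′ end, at chr5:114700702-114700761. Further upstream, A_66_P110803 changed less with fasting, by -0.40 in LKO (adjusted p = 0.0164) and -0.31 in WT (adjusted p = 0.0965). A_55_P2921709, near the 5′ end, fell by 0.58 in LKO (adjusted p = 0.00328) and was at 0.20 in WT (adjusted p = 0.368), with an interaction of -0.78 (SE 0.22, adjusted p = 0.022). All 3 probes fell with fasting in LKO livers, by amounts that differed between probes. The difference between genotypes was called with 1 of the 3 in each state. In fasted livers LKO minus WT was 0.27 with A_66_P110803 (adjusted p = 0.138) and -0.22 with A_55_P2921709 (adjusted p = 0.307), so its sign was not the same for all 3. In fed livers it was 0.37 (adjusted p = 0.168) and 0.56 (adjusted p = 0.0516), the same direction as with the probe used.

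For Acss2 a probe on a transcript listed apart from the main one, A_55_P2716851 at chr2:155350949-155351008, was 1.13 higher in fed LKO than in fed WT livers (SE 0.17, adjusted p = 0.000314). With fasting it fell by 0.72 in LKO (adjusted p = 0.000946) and was at -0.00 in WT (adjusted p = 0.995), an interaction of -0.72 (adjusted p = 0.0446). The main Acss2 probe, at chr2:155388385-155388444, gave an interaction of -0.18. The 6 kept Acaca probes all fell, by 2.13 to 2.94 in LKO and 1.50 to 3.05 in WT, and a further one was above background in 1 animal and was left out. Acly, Slc25a1, Me1 and Thrsp have 2 probes each, which moved the same way, and Fasn and Srebf1 have 1 (chr11:120668460-120668519 and chr11:60013214-60013273).

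**Figure D4:**
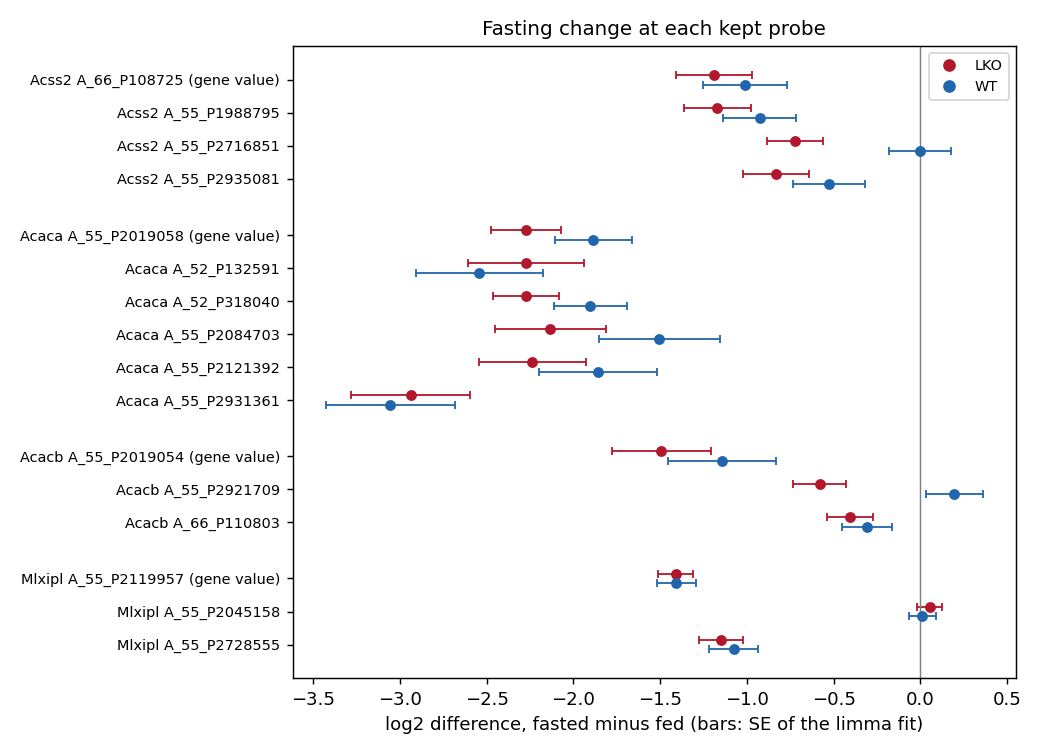
Fasting change (log2, horizontal axis) of every kept probe of Acss2, Acaca, Acacb and Mlxipl in LKO and WT livers, with SE. Mlxipl holds 1 probe near 0 beside 1 at -1.41, and the Acaca probes lie between -3.05 and -1.50.

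The rest of the pathway was read from 4 lists, whose counts stand against the shares of all genes called in the same comparison. With fasting these were 22.9% higher and 26.9% lower in LKO, and 22.6% higher and 21.8% lower in WT. The first list holds 16 partners of SREBP and ChREBP, of which 8 were called with fasting in LKO (3 higher, 5 lower, median -0.05) and 7 in WT (3 higher, 4 lower, median 0.05), near the shares of all genes. Insig2, which holds SREBP in the endoplasmic reticulum, rose by 2.06 in LKO (SE 0.17, adjusted p = 8.22e-09) and by 2.05 in WT (adjusted p = 4.61e-08). Its relative Insig1, itself a target of SREBP, fell by 1.00 in LKO (adjusted p = 4.18e-05) and by 1.35 in WT (adjusted p = 4.87e-06). Insig1 was higher in fasted LKO than in fasted WT livers (0.88, adjusted p = 0.000484), at 0.41 to 1.26 against -0.40 to 0.30. Mlx, the partner of ChREBP, fell by 0.44 in LKO and 0.40 in WT. Srebf2, which governs cholesterol synthesis, was at -0.09 in LKO (adjusted p = 0.301) and 0.11 in WT (adjusted p = 0.237), and Nr1h3, encoding the oxysterol receptor LXR alpha, at -0.15 in LKO (adjusted p = 0.023) and -0.11 in WT (adjusted p = 0.12). The Nr1h3 call was lost with quantile normalization (-0.08, adjusted p = 0.208) and without fed LKO replicate 6 (-0.12, adjusted p = 0.0626). Between genotypes 3 of the 16 were called in fasted livers (2 higher, 1 lower), where 17.9% of all genes were called higher and 20% lower. In fed livers and in the interaction 0 were called by limma, where 3 and 1 had an unadjusted p below 0.05. The shares of all genes were 1.97% higher and 1.99% lower in fed livers, and 7.71% and 10.8% in the interaction.

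The second list holds 11 regulators of the enzymes, with 7 called in LKO (4 higher, 3 lower, median 0.10) and 6 in WT (2 higher, 4 lower, median -0.04). Mid1ip1, a relative of Thrsp that promotes the assembly of acetyl-CoA carboxylase, fell by 2.81 in LKO (adjusted p = 6.42e-10) and 2.65 in WT (adjusted p = 8.12e-09). Aacs, which makes acetoacetyl-CoA for lipid synthesis, fell by 2.70 and 2.81. Mlycd, which breaks malonyl-CoA down, rose by 0.42 in LKO and 0.65 in WT. The catalytic subunit of AMP kinase Prkaa2, whose complex inactivates the carboxylases, fell by 0.57 and 0.69. Another subunit, Prkab2, rose by 0.48 in LKO and was at -0.19 in WT (adjusted p = 0.137), an interaction of 0.67 (SE 0.14, adjusted p = 0.00176). Hlcs, which attaches biotin to the carboxylases, was higher in fed LKO than in fed WT livers (0.58, adjusted p = 0.00111). Between genotypes 4 of the 11 were called in fasted livers (3 higher, 1 lower), where 17.9% of all genes were called higher and 20% lower. In fed livers 2 were called (1 each way), where 1.97% of all genes were called higher and 1.99% lower. In the interaction 2 were called higher, where 7.71% of all genes were.

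The third list holds genes of carbon and NADPH supply, 20 of 21 measured. With fasting 14 were called in LKO (2 higher, 12 lower, median -0.46) and 15 in WT (6 higher, 9 lower, median -0.28). Pklr, the liver pyruvate kinase and a target of ChREBP, fell 7.83-fold in LKO and 7.89-fold in WT. Khk, which phosphorylates fructose, fell by 1.85 in LKO (SE 0.17, adjusted p = 2.13e-08) and 1.51 in WT (SE 0.18, adjusted p = 1.41e-06). G6pdx, which makes NADPH from glucose 6-phosphate, fell by 0.83 in LKO (adjusted p = 8.22e-05) and 0.70 in WT (adjusted p = 0.00121).

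Some suppliers of carbon responded otherwise than Acly and Fasn. Slc25a10, the mitochondrial dicarboxylate carrier, fell by 0.40 in LKO and rose by 0.80 in WT, an interaction of -1.21 (SE 0.17, adjusted p = 6.88e-05). Idh1, a cytosolic source of NADPH, fell by 1.04 in LKO and 0.33 in WT, an interaction of -0.72 (SE 0.13, adjusted p = 0.00053). Pcx, which makes oxaloacetate from pyruvate, rose by 0.68 in WT and was at 0.12 in LKO (adjusted p = 0.146). Of the 20 genes, 8 were called with an interaction, all 8 lower, where 10.8% of all genes were called lower and 7.71% higher. In fasted livers 9 were called lower in LKO than in WT (20% of all genes) and 1, Slc13a5, higher (17.9%). Between genotypes in fed livers 0 were called by limma, where 1.97% of all genes were called higher and 1.99% lower, and 3 had an unadjusted p below 0.05.

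The last list holds 14 genes that use the fatty acids made, by elongation, desaturation or esterification. With fasting 11 were called in LKO (4 higher, 7 lower, median -0.67) and 12 in WT (4 higher, 8 lower, median -0.32). Elovl6, which lengthens palmitate, fell by 3.16 in LKO (adjusted p = 3.96e-08) and 2.91 in WT (adjusted p = 5.95e-07). Scd1, the main liver desaturase, fell by 1.92 in LKO and 2.89 in WT. In fasted livers Scd1 was 2.55-fold higher in LKO than in WT (1.35, SE 0.36, adjusted p = 0.0052), without overlap (5.41 to 6.74 against 3.74 to 5.21). The interaction for Scd1 was 0.97 (adjusted p = 0.198). Between genotypes 10 of the 14 were called in fasted livers (3 higher, 7 lower), 1 in fed livers (lower) and 4 in the interaction (1 higher, 3 lower). Over all genes 17.9% were higher and 20% lower in fasted livers, 1.97% and 1.99% in fed livers, and 7.71% and 10.8% in the interaction.

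Scd2, another desaturase, fell by 1.72 in LKO and 0.76 in WT, with an interaction of -0.96 (SE 0.19, adjusted p = 0.00137). Gpam, which starts glycerolipid synthesis, fell by 1.00 in LKO and was at -0.24 in WT (adjusted p = 0.315). Its interaction of -0.77 (adjusted p = 0.0365) was lost without any 1 of 11 animals. Pnpla3, a lipid droplet protein, was well above background in 2 of 6 fasted and 6 of 6 fed LKO livers. Its fitted change in LKO, -5.83 (SE 0.76, adjusted p = 2.35e-06), thus rests on 4 fasted livers with signals not well above background, and no fold is given for it. In WT, 0 of 5 fasted and 4 of 5 fed livers were well above background, with measured means of -5.80 and -1.24. With the main background correction Pnpla3 was at least 13.7-fold lower in fasted WT (adjusted p = 0.000151). That bound was 24.8 without fed WT replicate 4 and 8.7 without fed WT replicate 5. For the bound, each fasted array was given the dimmest signal that any probe well above background had on it, or the Pnpla3 signal where that was higher. With normexp background correction the change was -3.04 in LKO and -2.38 in WT. That WT change is smaller than the bound, which therefore does not hold across background corrections.

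**Figure D5:**
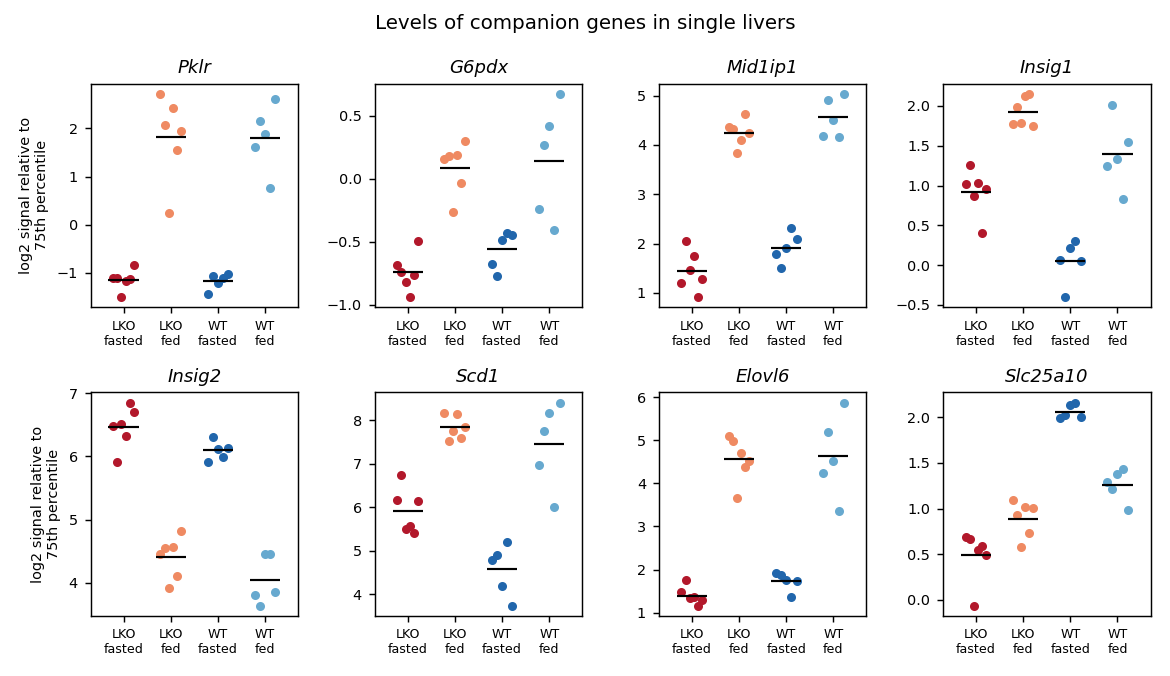
Level (log2 relative to the array's 75th percentile) of 8 genes around the pathway in every animal (points) of the 4 groups, with group means (lines). Pklr, Mid1ip1 and Elovl6 are low in both fasted groups, and Slc25a10 is lower in all 6 fasted LKO livers than in the 5 fasted WT livers.

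Without fed LKO replicate 3 the number called with fasting in LKO was 8, 7, 18 and 14 for the 4 lists in the order above, and in WT 8, 6, 16 and 12. Between genotypes in fasted livers it was 4, 5, 12 and 10, in fed livers 0, 1, 0 and 1, and in the interaction 1, 2, 10 and 5. Calls over all genes also moved when any 1 animal was left out, with fasting from 8159 to 8771 in LKO and 6999 to 8127 in WT. They ran from 5716 to 7031 between fasted genotypes, 471 to 883 between fed ones and 2745 to 4009 in the interaction. The shifts in the lists are thus not read as results about the lists.

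The genes whose 4 group means, centred on their own mean, lay nearest to the median pattern of the 10 were Col3a1, Klk1b5, Klk1b26, Cabp2 and Nans. Their root mean square distance over the 4 groups was 0.05, 0.07, 0.07, 0.09 and 0.10 log2 units. Col3a1 is a collagen of the connective tissue, and another collagen, the stellate cell marker Col1a1, fell with fasting by 1.63 in LKO and 1.55 in WT. The 4 stellate markers did not move alike: Dcn rose by 0.31 in LKO and 0.41 in WT. Their summed linear signals were 48.1 to 63.1 fasted and 40.0 to 54.0 fed in LKO livers. In WT livers they were 54.2 to 68.2 fasted and 40.2 to 51.0 fed. The 4 endothelial markers were called lower in fasted LKO than in fasted WT livers, 4 of 4, where 20% of all genes were called lower. Their summed linear signals were 20.4 to 26.0 against 29.0 to 45.8. The part of these cells in the differences of Srebf1 and Acacb was not tested.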

How the data were processed

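Liver RNA of 22 mice was measured on 24 Agilent arrays on 3 slides. Per the file headers, intensity values were made with Agilent Feature Extraction 10.10.1.1, background-subtracted and not scaled between arrays. A deposited log2 table of the authors, made with limma per the submitters' processing notes, served as an alternative. Here the processed signal was set, as log2, relative to the 75th percentile of each array's non-control spots (451 to 621.2 intensity units). Repeat arrays of an animal were averaged. Of 56605 probes, 46291 carried a symbol and 28138 of these were kept as well above background in at least 5 of 22 animals. A gene was read from its kept probe with the highest mean, which gave 17215 genes. limma 3.58.1 in R 4.3.3 fitted 1 mean per group with Benjamini-Hochberg adjustment over all genes, or over all kept probes for probe values, and called adjusted p below 0.05. The fit was tested on simulated data.

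Replicate numbers were not taken to pair the animals. Deviations from group means correlated by -0.18 to 0.18 over 31 same-numbered pairs and by -0.17 to 0.19 over 150 others. These values cannot show how the mice were numbered. Alternatives covered the background correction, normalization, filter, probe rule, slide, replicate number, repeat arrays, groups fitted and single animals. The members and lists were chosen with earlier results of these data known. From the 4 lists the text names a fixed panel and the 3 called genes with the largest change per list and comparison, and not all of these are named. A gene of the supply list is not reported here and is left out of its counts. Pcx and Col1a1 were chosen after their values were seen. The number of animals limits the precision.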

Additional observations from a re-analysis of the deposited data

Results flagged for a closer look

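Of 160 groups of animals examined (40 genes in 4 groups), 11 held 1 animal set off from the rest, and chance sets off about 1 in 20. Among the 10 lipogenic genes this was Acaca alone, in fasted WT replicate 2, the lowest at 2.60 (next 2.83). Prkaa2 in fed LKO replicate 3 was lowest at 2.49 (next 2.82), as was Prkaa1 at -0.10 (next 0.06), while the citrate transporter gene Slc13a5 was highest there at 2.04 (next -0.78). In fasted LKO, Slc13a5 was lowest in replicate 6 at -1.01 (next 0.80), Gpam in replicate 1 at 3.67 (next 4.01) and Slc25a10 in replicate 3 at -0.06 (next 0.50). Nfya was highest in fasted LKO replicate 6 at 0.02 (next -0.20) and in fed LKO replicate 1 at 0.27 (next -0.03). Prkab2 was lowest in fed LKO replicate 2 at -2.27 (next -1.95), and Lpin1 in fasted WT replicate 1 at 4.63 (next 4.93).

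The fasting response differed between LKO and WT, by the interaction term of limma, for 9 of the named genes. The change in LKO minus that in WT was -0.53 for Srebf1, -0.77 for Gpam, 0.67 for Prkab2, -1.45 for Acss3, 0.28 for Prkaa1, -1.21 for Slc25a10, -0.72 for Idh1, -0.96 for Scd2 and -0.55 for Agpat2. Srebf1, Idh1, Scd2 and Agpat2 fell in both genotypes and more in LKO, while for Gpam no fall was called in WT. Besides those of Srebf1 and Gpam, the calls of Prkaa1 and Acss3 depended on the processing. Prkaa1 was lost with normexp (adjusted p = 0.0582), the deposited table (0.0566), no filter (0.087), the replicate block (0.0741) and without any 1 of 12 animals. Acss3 was lost with no filter (adjusted p = 0.0613), the replicate block (0.0503) and without any 1 of 9 animals. The calls of Prkab2, Slc25a10, Idh1, Scd2 and Agpat2 held under all alternatives run.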

How the results depend on the processing

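The fall of the 10 genes with fasting kept its count under every alternative in LKO and in WT, except in WT with the mean of kept probes (9). Of 1590 values of the 10 genes under alternatives, 1541 were the same as to being called, 39 lost the call, 10 gained it and 0 reversed. Reversed means a change of sign where the gene was called in either fit. Uncalled values that changed sign count as the same. Acly between fed genotypes, for example, ran from -0.29 to 0.29. In the other genes 1 of 4770 reversed: Srebf2 with fasting in LKO was 0.19 (adjusted p = 0.0461) with the mean of kept probes, against -0.09. Calls between genotypes were less stable. In fasted livers 1 of the 10 was called with no filter on dim probes, 1 with the mean of kept probes, 1 with the replicate block and 5 with only the compared groups, against 2. The count was 3, with Me1 added, under normexp, the deposited log2 table and the filter raised to 11 animals. In fed livers 0 were called by limma with no filter, with the replicate block or with only the compared groups, against 1, where 1, 1 and 2 had an unadjusted p below 0.05. For the interaction 0 were called with quantile normalization, the deposited log2 table, no filter or the replicate block, against 1, and 1 had an unadjusted p below 0.05 in each. Over all genes, 374 differed in fed livers with only the compared groups, against 681. The cause was not tested. Leaving out 1 animal gave 1 to 3 of the 10 called in fasted livers, 0 to 1 in fed livers and 0 to 1 for the interaction. Over all genes it gave 471 to 883 in fed livers and 2745 to 4009 for the interaction. Every animal left out also makes the groups smaller. The replicate block left 8417 and 7442 genes called with fasting in LKO and WT, against 8571 and 7643. It kept all 10 genes called with fasting in both genotypes and lowered their other counts as given above.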
